A study of Mus musculus with 33 samples.

Results

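The matrix metalloproteases (Mmp genes), their tissue inhibitors (Timp genes) and the related Adam and Adamts proteases were followed across 6 groups of sorted mouse macrophages. Every gene in the deposited count files whose symbol began with Mmp, Timp, Adam or Adamts followed by a number was taken, whatever its level. This gave 79 genes of 24421, namely 23 Mmp, 4 Timp, 33 Adam and 19 Adamts genes. At least 1 count was found for 58 of them in the 33 samples and none for 21, among which were Mmp1a, Mmp1b and Mmp20. A mean of at least 1 CPM (counts scaled to library size) in any group was reached by 24 genes, and the values below are mainly theirs.

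Matrix metalloproteases are zinc-dependent endopeptidases that are made as inactive proenzymes and that cleave collagens, elastin, gelatin, other proteases and cytokines once their propeptide is removed. Most are secreted, while Mmp14 is anchored in the membrane. Timp proteins bind the active site of these enzymes and hold them inactive. Adam proteins are membrane-bound relatives, several of which release the ectodomains of receptors, adhesion molecules and growth factors, and Adamts proteins are secreted relatives that act on procollagens, proteoglycans and von Willebrand factor. Macrophages are a known source of several of these enzymes, the elastase Mmp12 being named for them.

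The samples were Kupffer cells (KCs), the resident macrophages of the liver, and alveolar macrophages (AMs), the resident macrophages of the airspaces, and the study asked what the loss of the transcription factor Zeb2 did to them. All 6 groups carried the Zeb2fl/fl allele, in which part of the gene lies between loxP sites. CRE- KCs (6 samples) and CRE- AMs (5 samples) came from mice without a Cre transgene. Clec4f-crexZeb2fl/fl KCs were sorted into Tim4+ (6 samples) and Tim4- cells (6 samples), and Itgax-crexZeb2fl/fl AMs into CD11b- (5 samples) and CD11b+ cells (5 samples). Clec4f-cre is driven by a KC gene, though the study also found its activity in a minor population of B cells. Itgax-cre is active in other CD11c-expressing cells as well as AMs. Each tissue had its own Cre line, so tissue and Cre line cannot be told apart. The methods give littermate controls and an age of 6 to 8 weeks for the mice, without giving the age of each sample. The study found that KCs and AMs of CRE+ mice held cells that had kept a copy of Zeb2 beside cells that had lost it. The share of each in these sorts is not given by the labels. The deleted allele still gives a shortened mRNA. The labels do not state whether the replicates of a group were separate animals, so the p-values measure only the spread between these samples.

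Total counts ran from 9837240 in Tim4- KC replicate 1 to 24332306, and every other sample had at least 17454078. Mean Zeb2 was 282, 174 and 169 CPM in CRE-, Tim4+ and Tim4- KCs, and 195, 105 and 62.5 CPM in CRE-, CD11b- and CD11b+ AMs. The sort markers followed the labels, with mean Timd4 at 708, 381 and 2.80 CPM in CRE-, Tim4+ and Tim4- KCs and mean Itgam at 1.92, 17.7 and 265 CPM in CRE-, CD11b- and CD11b+ AMs. Mean Clec4f, the defining KC gene, was 10892, 4700 and 3586 CPM in the same KC groups and 0.274 CPM in CRE- AMs. Markers of other cell types moved with some groups. Those of neutrophils, monocytes, liver endothelial cells, hepatocytes and lung epithelium are given beside the results concerned. Of 6 dendritic cell genes tested in each tissue, none was called in Tim4+ KCs against CRE- KCs. Ccr7, Cd209a and Xcr1 were called higher in Tim4- KCs, beside 8.82% of all genes tested. Against CRE- AMs, Zbtb46 was called higher in CD11b- AMs, and Cd209a and Zbtb46 in CD11b+ AMs, beside 6.5% and 15.3%. The part of dendritic cells in the levels below was not tested. Some B cell, T cell and eosinophil genes were also called and are not followed here.

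Of the Mmp genes, 10 lie together on chromosome 9 within 7272514 to 7699585 of GRCm38, in an interval of 13 annotated genes. They include Mmp13, Mmp12, Mmp8 and Mmp27, which were among the Mmp genes with the highest levels in these cells, and Mmp3, Mmp7 and Mmp10, whose highest group means were 0.046, 0.060 and 0.612 CPM. The binding element of AP-1, which is known from collagenase and stromelysin promoters, was searched on both strands as TGANTCA in RefSeq promoter windows (GRCm38.p6) from 250 bases before to 50 after each start. It was present in 8.97% of the 27025 genes with a window, in 13 of the 49 members with one and in 8 of the 10 cluster genes, the exceptions being Mmp8 and Mmp27. Counted from the start, the first base of the match lay at -35 in Mmp13 (chr9:7272468-7272497), -44 in Mmp12 (chr9:7347319-7347348), -46 in Mmp3 (chr9:7445765-7445794) and -63 in both Mmp10 (chr9:7502268-7502297) and Mmp7 (chr9:7692016-7692045), all on the plus strand. The 5 stretches are shown because the first and second belong to genes with large changes below and the other 3 to neighbours that stayed near 0, and capitals mark the match.
Mmp13: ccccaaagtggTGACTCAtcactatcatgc
Mmp12: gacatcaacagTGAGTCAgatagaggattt
Mmp3: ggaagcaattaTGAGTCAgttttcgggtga
Mmp10: tagcacccatgTGAGTCAtgcttagtgacc
Mmp7: aagtgtgcaaaTGAGTCAcctatttccaca

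ZEB proteins are known to bind E-boxes of the sequence CACCTG, read as CAGGTG on the other strand. This motif was found in 22.6% of the genes with a window and in 10 of the 49 members that had one. Timp2 (chr11:118355500-118355529, minus strand, match at -107) and Timp3 (chr10:86300169-86300198, plus strand, match at -232) are shown because they are the inhibitors with measurable levels. Capitals again mark the match, which is a description of the letters and not a site of binding.
Timp2: gcgcagcgtgcCAGGTGgtgcgggaagccc
Timp3: agggtgcgggcCACCTGgggcccttggaag

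In the 6 groups, different genes led the family once counts were divided by exon length (CPM per kb). Timp2 at 110.5 ± 8.94 and Adam10 at 109.8 ± 7.78 CPM per kb (SD, n = 6) led in CRE- KCs, followed by Adam17 at 45.8 and Adam9 at 38.1. In CRE- AMs the order was Adam10 at 47.7 ± 3.86, Timp2 at 38.9 ± 5.44, Adam9 at 38.1 ± 2.71 and Mmp19 at 32.7 ± 4.15 (SD, n = 5). The levels of Timp2 and Adam9 there differed by less than their SD. Mmp13 took the fifth place in both CRE+ KC groups, at 17.8 ± 12.2 in Tim4+ and 26.6 ± 18.5 CPM per kb in Tim4- KCs (SD, n = 6). Mmp8 led in both CRE+ AM groups, at 79.7 ± 17.7 in CD11b- and 94.0 ± 21.9 CPM per kb in CD11b+ AMs (SD, n = 5), and Mmp12 stood beside it in CD11b+ AMs at 94.0 ± 31.3.

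Each comparison was made with the quasi-likelihood test of edgeR, and p-values were adjusted by Benjamini and Hochberg's method over all genes that passed a filter on low counts. A gene was called changed at an adjusted p under 0.05 with a log2 fold change over 1 in size. Of the 79 members, between 22 and 29 passed the filter in any comparison. In Tim4+ KCs against CRE- KCs, 2 of 25 members tested were called (1 higher, 1 lower), beside 2.31% of all genes tested, and the median log2 change was 0.23 over members and -0.00 over all genes. In Tim4- KCs against CRE- KCs, 5 of 25 were called (1 higher, 4 lower), beside 8.82% of all genes, with medians of -0.45 and -0.03. Between Tim4- and Tim4+ KCs, 4 of 25 were called, all lower in Tim4- KCs, beside 5.45% of all genes, with medians of -0.42 and 0.01. Both CRE+ groups of a tissue were compared with the same CRE- samples, so the comparisons are not independent.

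In AMs a larger share of the tested members was called. In CD11b- AMs against CRE- AMs, 8 of 22 members were called (4 higher, 4 lower), beside 6.5% of all genes tested, with median log2 changes of -0.15 over members and 0.00 over all genes. In CD11b+ AMs against CRE- AMs, 10 of 22 were called (6 higher, 4 lower), beside 15.3% of all genes, with medians of 0.35 and -0.01. Between CD11b+ and CD11b- AMs, 5 of 22 were called (4 higher, 1 lower), beside 10.2% of all genes, with medians of 0.34 and 0.02. Between the CRE- cells of the 2 tissues, 18 of 23 were called (13 higher and 5 lower in KCs), beside 33.3% of all genes, with medians of 1.23 and 0.03. The change in CRE+ KCs less the change in CRE+ AMs was called for 6 of 29 members (1 positive, 5 negative), beside 8.15% of all genes, with medians of -0.47 and 0.01.

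**Figure D1:**
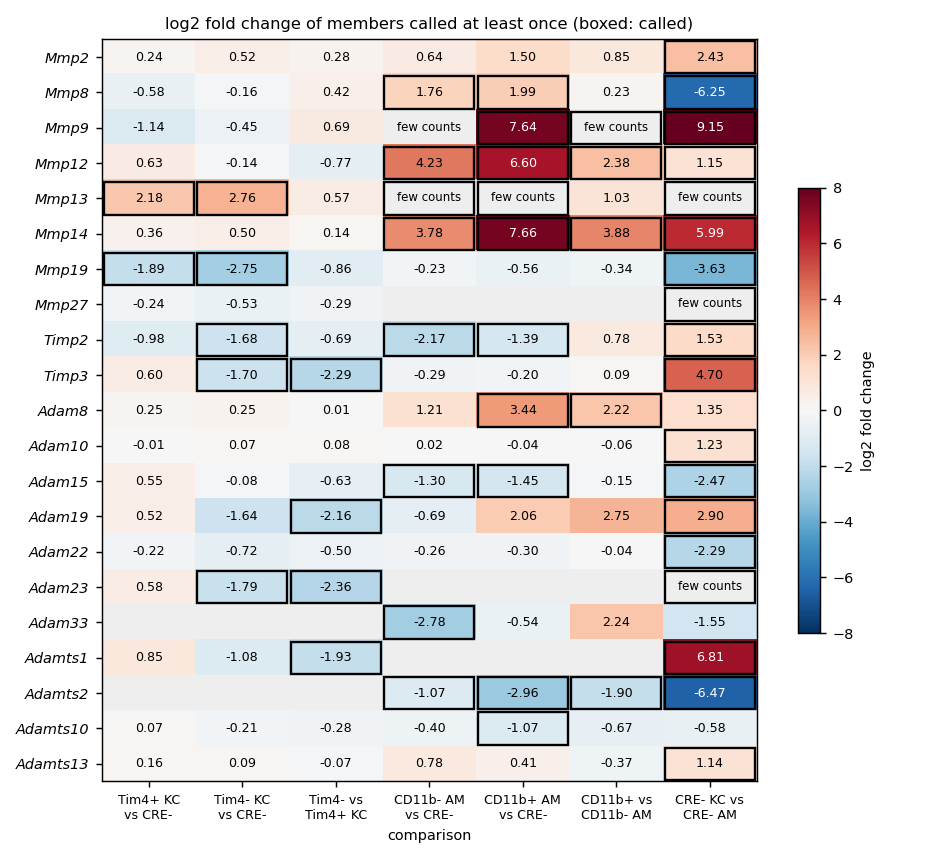
Log2 fold change of each member called in at least 1 comparison (rows) in each comparison (columns), with colour for its size and direction, saturated at 8 on either side of 0. Black boxes mark calls, grey cells were not tested, and "few counts" stands where a group held 3 counts or fewer; the calls in AMs are mostly higher Mmp genes and lower Timp2, Adam15 and Adamts2.

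Mmp13, a secreted collagenase that cleaves fibrillar collagen (chromosome 9, 7272514 to 7283331), rose in both CRE+ KC groups. It was 8.28 to 16.3 CPM in CRE- KCs (median 9.49), 23.5, 21.9, 27.3, 79.0, 35.9 and 98.2 in Tim4+ KCs, in the order of the replicate numbers, and 30.8, 41.5, 43.1, 130, 42.1 and 139 in Tim4- KCs. Every CRE+ KC sample lay above every CRE- KC sample, and the samples numbered 4 and 6 were the highest in both CRE+ groups. Against CRE- KCs the log2 fold change was 2.18 (SE 0.434, edgeR adjusted p = 0.00261) in Tim4+ and 2.76 (SE 0.441, adjusted p = 9.97e-05) in Tim4- KCs, while the CRE+ groups overlapped and their log2 difference of 0.57 had an adjusted p of 0.410. Mmp13 had no count in any of the 5 CRE- AM samples, 45 counts in all in CD11b- AMs and 82 in CD11b+ AMs. CD11b- AMs held 0.203, 1.19, 0, 0.694 and 0 CPM and CD11b+ AMs 0, 1.69, 0.892, 1.06 and 0.701 CPM, so that both groups met the CRE- samples at 0. Against a floor of 3 counts over the CRE- group it was at least 15.3-fold higher in CD11b- AMs (edgeR adjusted p = 0.0213) and at least 31.5-fold higher in CD11b+ AMs (adjusted p = 0.00376). The call in CD11b- AMs was lost without CD11b- AM replicate 2, which held 1.19 CPM (adjusted p = 0.0571), with limma-voom (log2 2.79, adjusted p = 0.201) and with all 33 samples in 1 fit. In the KC samples the sum of 7 monocyte genes was 83.8 to 309 CPM in CRE-, 112 to 370 in Tim4+ and 360 to 867 in Tim4- cells, with 2 of 5 tested called higher in each CRE+ group than in CRE- KCs (Ccr2 and Cx3cr1), and their part in the level of Mmp13 was not tested.

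Mmp8, the collagenase known from neutrophil granules (chromosome 9, 7558456 to 7568485), was nearly absent from KCs and rose in both CRE+ AM groups. CRE- AMs held 55.7, 52.6, 44.9, 64.2 and 68.1 CPM. CD11b- AMs held 220, 188, 120, 221 and 218 CPM, and CD11b+ AMs held 275, 202, 148, 269 and 245 CPM. No CRE+ AM sample overlapped the CRE- samples, and replicate 3 was the lowest of each group. Mmp8 rose by 1.76 on the log2 scale (SE 0.174, edgeR adjusted p = 3.56e-07) in CD11b- and 1.99 (SE 0.175, adjusted p = 1.40e-08) in CD11b+ AMs, and the CRE+ groups overlapped with a log2 difference of 0.23 (adjusted p = 0.318). In KCs no sample exceeded 2.52 CPM, and group means were 0.734, 0.496 and 0.648 CPM.

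Because neutrophils make Mmp8 and Mmp9, a list of 11 neutrophil genes was summed in each AM sample, of which 10 were in the files. The sum ran from 36.3 to 60.2 CPM in CRE- AMs, from 808 to 2429 in CD11b- AMs and from 8236 to 10464 in CD11b+ AMs. Of 6 list members tested, 5 rose in CD11b- and 6 in CD11b+ AMs, and S100a8 averaged 4.51, 719 and 4464 CPM in the 3 groups and S100a9 0.0961, 508 and 3684. Of the granule genes, Ltf, which codes for lactoferrin, was among those called in both groups, at means of 0.173, 1.66 and 16.9 CPM. Ngp and Camp had no count in CD11b- AMs, and in CD11b+ AMs they had 291 and 68 counts in all, at up to 13.9 and 3.50 CPM in a sample, while Mpo and Elane had no count in any AM group. In bulk samples, more cells of a type and more RNA per cell cannot be told apart, and the part of other cells in these levels was not tested.

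Mmp12, the macrophage elastase (chromosome 9, 7344381 to 7369499), rose in both CRE+ AM groups. CRE- AMs held 7.39, 7.34, 5.08, 9.58 and 5.27 CPM, CD11b- AMs 211, 82.3, 128, 98.5 and 131 CPM, and CD11b+ AMs 1021, 440, 509, 715 and 714 CPM. The 3 groups did not overlap. Log2 fold changes were 4.23 (SE 0.277, edgeR adjusted p = 9.68e-10) in CD11b- and 6.603 (SE 0.299, adjusted p = 7.68e-13) in CD11b+ AMs against CRE- AMs, and 2.38 (SE 0.238, adjusted p = 2.14e-07) between the CRE+ groups. KCs kept a low level in all groups, with 6.79 to 29.6 CPM in CRE- KCs (median 13.7), 9.52 to 33.8 in Tim4+ KCs (median 24.5) and 6.99 to 32.2 in Tim4- KCs (median 11.6), and no comparison among them was called. The log2 change in CRE+ KCs less that in CRE+ AMs was -5.17 (SE 0.477, adjusted p = 5.28e-10).

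Mmp14, the membrane-anchored protease that activates pro-Mmp2 (chromosome 14, 54431612 to 54445364), rose from near 0 in AMs. CRE- AMs held 0.0448, 0, 0.462, 1.35 and 0.716 CPM, CD11b- AMs 11.4, 8.01, 3.56, 4.69 and 7.65 CPM, and CD11b+ AMs 164, 99.6, 69.1, 88.8 and 102 CPM, again without overlap. The log2 fold change was 3.78 (SE 0.492, edgeR adjusted p = 1.09e-05) in CD11b- and 7.66 (SE 0.471, adjusted p = 6.98e-11) in CD11b+ AMs, and 3.88 (SE 0.352, adjusted p = 5.94e-08) between the CRE+ groups. The size of the first and second rested on CRE- AM replicate 4, without which they were 4.53 and 8.41. In KCs Mmp14 was present in every group, at 17.6 to 48.9 CPM (median 31.1), 25.8 to 68.7 (median 38.5) and 26.5 to 74.6 (median 43.2) in CRE-, Tim4+ and Tim4- cells, which overlapped. The log2 change in CRE+ KCs less that in CRE+ AMs was -5.28 (SE 0.546, adjusted p = 5.39e-09), and -6.02 without the samples numbered 4. Its substrate Mmp2, a gelatinase known mainly from stromal cells, stayed at 7.18 CPM or less in every KC sample and 3.01 or less in every AM sample, and was called only as higher in CRE- KCs than in CRE- AMs (log2 2.43, SE 0.839, adjusted p = 0.0210, or 3.36 without CRE- AM replicate 5).

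Mmp9, the other gelatinase (chromosome 2, 164940780 to 164955850), rose in CD11b+ AMs and varied widely among KC samples. CRE- AMs held no count in 3 samples and 0.0462 and 0.289 CPM in replicates 3 and 4, and CD11b- AMs held 1 count in all. CD11b+ AMs held 16.5, 10.9, 8.35, 20.5 and 17.4 CPM, above every sample of the other AM groups. The log2 fold change against CRE- AMs was 7.64 (SE 0.579, edgeR adjusted p = 1.49e-09), or 9.65 without CRE- AM replicate 4. Against CD11b- AMs, 1329 counts stood against 1, a ratio of 1504 with a 95% counting interval of 269 to 59445 (adjusted p = 2.75e-09). In KCs Mmp9 was 49.6, 51.2, 51.4, 21.7, 55.6 and 13.2 CPM in CRE- replicates 1 to 6, 2.80, 31.9, 16.3, 29.7, 28.2 and 3.0 in Tim4+ replicates and 2.60, 54.4, 14.7, 23.2, 80.6 and 3.84 in Tim4- replicates. Replicates 1 and 6 were the lowest of both CRE+ KC groups, the groups overlapped, and no KC comparison of Mmp9 was called.

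**Figure D2:**
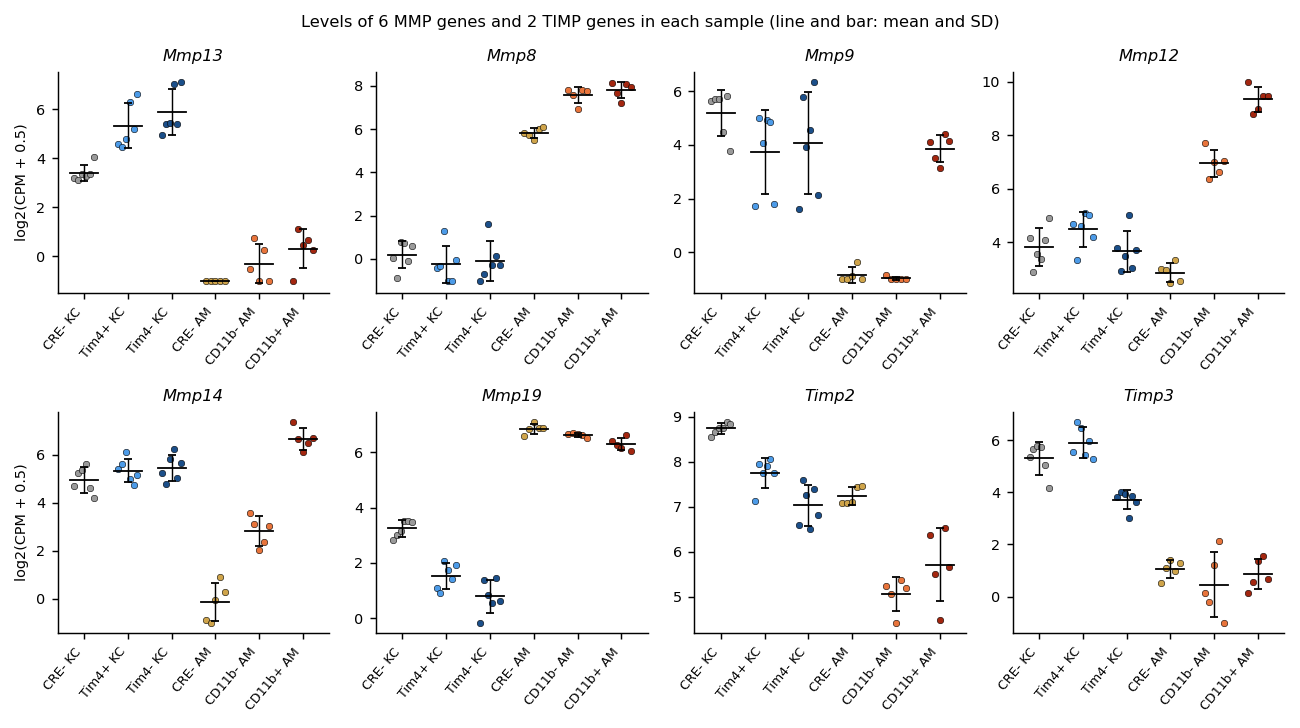
Level of 8 members in each of the 33 samples, as log2 of CPM with a small constant added, by group; points are samples and line and bar are mean and SD. Mmp12 and Mmp14 climb across the 3 AM groups, Mmp8 is higher in both CRE+ AM groups and Mmp9 among AMs in CD11b+ samples, Mmp13 is higher and Mmp19 lower in both CRE+ KC groups, and Timp3 is lowest among KCs in the Tim4- samples.

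Mmp19, a secreted protease of basement membrane components (chromosome 10, 128790910 to 128800824), fell in both CRE+ KC groups. CRE- KCs held 6.64 to 11.0 CPM (median 9.44), Tim4+ KCs 1.37 to 3.74 (median 2.49) and Tim4- KCs 0.400 to 2.28 (median 1.18). Neither CRE+ group overlapped CRE- KCs. Mmp19 had log2 fold changes of -1.89 (SE 0.328, edgeR adjusted p = 0.000735) in Tim4+ and -2.75 (SE 0.343, adjusted p = 5.39e-06) in Tim4- KCs, and the difference of -0.86 between the CRE+ groups had an adjusted p of 0.105. In AMs Mmp19 stood far higher, at 94.8, 114, 136, 117 and 116 CPM in CRE- AMs, 91.1 to 103 CPM in CD11b- AMs and 65.7 to 97.9 CPM in CD11b+ AMs. The log2 difference of -0.56 between CD11b+ and CRE- AMs had an adjusted p of 0.000123 but was under the fold limit, and the change in CRE+ KCs less that in CRE+ AMs was -1.89 (SE 0.248, adjusted p = 5.46e-07). An opposite-strand gene, Tmem198b, overlaps 22.3% of the exon length of Mmp19. The strand setting of the counting is not given in the sources used here, so how reads in the shared stretch were assigned is not known. Tmem198b averaged 7.90, 6.38 and 5.67 CPM in the CRE-, Tim4+ and Tim4- KCs.

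Mmp27, a less studied relative whose gene follows Mmp8 on chromosome 9 (7571396 to 7581885), was a KC gene in these samples. It ran from 9.32 to 21.7 CPM in CRE- KCs (median 17.4), from 10.5 to 18.2 in Tim4+ KCs (median 15.02) and from 6.04 to 23.5 in Tim4- KCs (median 9.61), with no call among them. No count was found in CRE- AMs, and 17 and 14 counts in all were found in CD11b- and CD11b+ AMs, so that against a floor of 3 counts it was at least 582-fold higher in CRE- KCs than in CRE- AMs. Apart from the Mmp genes described above, none reached a group mean of 1 CPM.

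Timp2, the inhibitor that also takes part in the activation of pro-Mmp2 by Mmp14 (chromosome 11, 118301069 to 118355740), was lower in every CRE+ group. CRE- KCs held 376 to 474 CPM (median 434), Tim4+ KCs 139 to 269 (median 227) and Tim4- KCs 91.0 to 195 (median 133). Neither CRE+ KC group overlapped CRE- KCs, and they overlapped each other. The log2 difference in Tim4+ KCs, -0.98 (SE 0.168, edgeR adjusted p = 0.000634), was just under the fold limit, and the fall in Tim4- KCs was -1.68 (SE 0.171, adjusted p = 3.90e-07). CRE- AMs held 135, 136, 137, 173 and 176 CPM, CD11b- AMs 37.5, 33.1, 20.97, 40.9 and 35.9 CPM, and CD11b+ AMs 83.0, 44.9, 21.9, 91.3 and 50.2 CPM. Both CRE+ AM groups lay below all CRE- AMs, with log2 fold changes of -2.17 (SE 0.268, adjusted p = 5.98e-06) in CD11b- and -1.39 (SE 0.260, adjusted p = 0.000202) in CD11b+ AMs. The CRE+ AM groups overlapped each other, and their log2 difference of 0.78 was under the fold limit. CRE- KCs exceeded CRE- AMs by 1.53 on the log2 scale (SE 0.0932, adjusted p = 2.58e-09).

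Timp3, the inhibitor that is bound to the extracellular matrix and also blocks Adam17 (chromosome 10, 86300372 to 86349506), fell in Tim4- KCs. CRE- KCs held 17.3 to 55.0 CPM (median 45.6), Tim4+ KCs 38.5 to 104 (median 54.9) and Tim4- KCs 7.56 to 15.8 (median 13.9). Tim4- KCs lay below all samples of both other groups. Its log2 difference was -1.70 (SE 0.275, edgeR adjusted p = 0.000117) against CRE- KCs and -2.29 (SE 0.279, adjusted p = 3.00e-05) against Tim4+ KCs. Adam23, an Adam protein without protease activity that is known from the nervous system (chromosome 1, 63445891 to 63596276), moved alongside it. It ran from 7.85 to 47.1 CPM in CRE- KCs (median 39.1), from 30.5 to 95.9 in Tim4+ KCs (median 38.6) and from 8.53 to 10.9 in Tim4- KCs (median 9.27), overlapping CRE- KCs through CRE- replicate 6 alone. Its log2 fold change was -1.79 (SE 0.332, adjusted p = 0.000447) in Tim4- against CRE- KCs and -2.36 (SE 0.337, adjusted p = 8.72e-05) against Tim4+ KCs.

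Markers of liver endothelial cells moved with Timp3 and Adam23. The sum of 10 such genes ran from 945 to 2475 CPM in CRE-, from 1447 to 3957 in Tim4+ and from 554 to 761 in Tim4- samples, while 8 of the 10 fell in Tim4- KCs in each comparison (median log2 -1.44 against CRE- and -2.06 against Tim4+ KCs). None was at 0 in these groups, and Stab2, a scavenger receptor of the sinusoids, averaged 330, 320 and 86.0 CPM. Per 1000 CPM of that sum, Timp3 was 18.3 to 31.9, 22.5 to 43.5 and 12.1 to 23.1 CPM in CRE-, Tim4+ and Tim4- KCs, and Adam23 was 8.31 to 23.9, 19.1 to 24.2 and 13.4 to 16.8 CPM. On this scale the Tim4- samples overlapped CRE- KCs for both genes, and Tim4+ KCs for Timp3 alone. The list holds Cdh5, which the study also counts as a core gene of KCs. Cdh5 averaged 239, 173 and 121 CPM, and without it, a choice made after the data were seen, the sum of the other 9 genes was 741 to 2221, 1303 to 3726 and 424 to 627 CPM. Per 1000 CPM of this smaller sum, Timp3 was 23.3 to 37.7, 24.5 to 48.3 and 14.5 to 29.03 CPM and Adam23 10.6 to 27.3, 20.6 to 25.7 and 16.3 to 21.9 CPM, so that the Tim4- samples then overlapped both other groups for both genes. The part of endothelial RNA in these changes was not tested. Syn3, whose exons overlap 21.3% of the Timp3 exon length on the opposite strand, averaged 1.32, 1.34 and 1.502 CPM in the 3 KC groups.

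**Figure D3:**
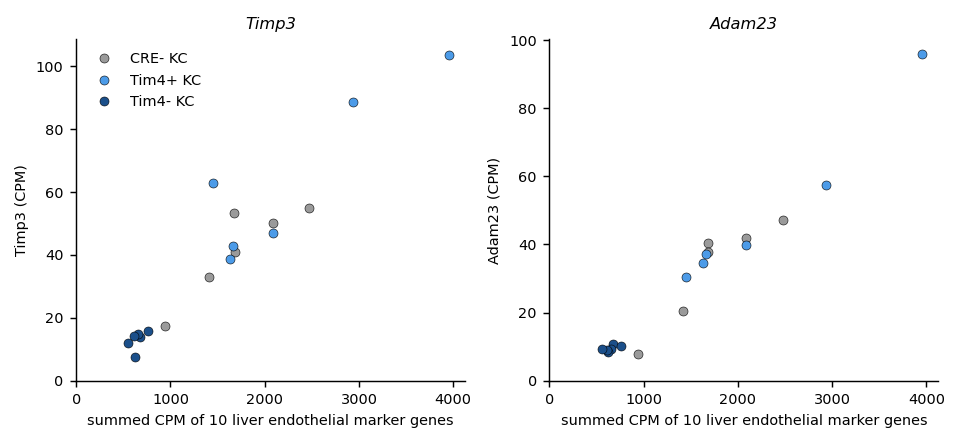
Level (CPM) of Timp3 (left) and Adam23 (right) in each of the 18 KC samples against the summed CPM of 10 liver endothelial marker genes in the same sample, coloured by group. The 6 Tim4- samples sit at the lower left, with marker sums of 554 to 761 CPM, and CRE- replicate 6, with the lowest CRE- sum of 945 CPM, sits nearest to them.

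The other inhibitors were scarce. Timp1 did not exceed 1.26 CPM in any sample, with 3, 1 and 1 counts in all in CRE-, Tim4+ and Tim4- KCs and 27, 45 and 20 counts in CRE-, CD11b- and CD11b+ AMs. Timp3 was 0 to 3.93 CPM over all AM samples.

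The sheddases Adam10 and Adam17, which release receptors and growth factor precursors from the cell surface, were not called in any comparison within a tissue. Adam10 was 486 to 577 CPM in CRE- KCs (median 551), 461 to 638 in Tim4+ KCs (median 537) and 491 to 668 in Tim4- KCs (median 562), and the groups overlapped. CRE- AMs held 259, 238, 236, 232 and 206 CPM, and CD11b- and CD11b+ AMs held 220 to 258 and 194 to 249 CPM. Adam10 differed between the tissues, with a log2 excess of 1.23 in CRE- KCs (SE 0.0720, edgeR adjusted p = 1.67e-09). Adam17 was 309 to 342 CPM in CRE- KCs, 244 to 313 in Tim4+ and 234 to 302 in Tim4- KCs, with log2 differences of -0.30 (adjusted p = 0.0160) and -0.27 (adjusted p = 0.0105) that were under the fold limit. CRE- AMs held 186, 169, 233.2, 220 and 211 CPM of Adam17, CD11b- AMs 222, 203, 208, 216 and 196 CPM, and CD11b+ AMs 240.2, 251, 273, 265 and 233.4 CPM. CD11b+ AMs lay above both other groups, which overlapped, with log2 differences of 0.30 from CRE- AMs (adjusted p = 0.00364) and 0.26 from CD11b- AMs (adjusted p = 0.0113) that were under the fold limit too. Adam9, another widely expressed sheddase, was 90.2 to 135 CPM in Tim4- KCs against 144 to 179 in CRE- KCs, a log2 difference of -0.48 (adjusted p = 0.000973) that was also under that limit.

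Adam15, a membrane protease with an integrin-binding motif (chromosome 3, 89338542 to 89349996), fell in AMs. CRE- AMs held 93.4, 85.0, 98.5, 94.5 and 108 CPM, CD11b- AMs 39.9, 47.8, 28.4, 38.4 and 40.6 CPM, and CD11b+ AMs 46.2, 41.1, 21.8, 34.0 and 33.9 CPM. Both CRE+ groups lay below all CRE- samples, with log2 fold changes of -1.30 (SE 0.156, edgeR adjusted p = 4.54e-06) and -1.45 (SE 0.157, adjusted p = 2.76e-07). In KCs it was 12.9 to 19.8 CPM in CRE-, 13.4 to 35.6 in Tim4+ and 6.09 to 22.7 in Tim4- cells with no call, and the change in CRE+ KCs less that in CRE+ AMs was 1.62 (SE 0.271, adjusted p = 2.85e-05). An annotated opposite-strand gene that is not among the rows of the files covers 20.6% of its exon length.

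Adam8, a protease of myeloid cells that is known to be inducible (chromosome 7, 139978932 to 139992562), rose in CD11b+ AMs. CRE- AMs held 0.134, 0.391, 0.647, 0.433 and 1.33 CPM, CD11b- AMs 1.52, 0.777, 1.78, 1.85 and 0.894 CPM, and CD11b+ AMs 7.93, 4.75, 2.20, 9.93 and 7.30 CPM. CD11b+ AMs lay above both other groups, which overlapped. The log2 fold change was 3.44 (SE 0.514, edgeR adjusted p = 1.66e-05) against CRE- and 2.22 (SE 0.479, adjusted p = 0.00114) against CD11b- AMs. Markers of monocytes rose in the same samples: their sum was 6.03 to 12.6 CPM in CRE- AMs, 12.6 to 25.5 in CD11b- AMs and 90.9 to 295 in CD11b+ AMs, and all 6 tested were called higher in CD11b+ than in CRE- AMs. A list of 10 lung epithelial genes summed to 104 to 148, 346 to 415 and 850 to 1218 CPM in CRE-, CD11b- and CD11b+ AMs, of which 4 and 5 of 10 rose against CRE- AMs, with Krt8 at 0.160, 57.3 and 563 CPM and Cdh1 at 94.0, 271 and 344 CPM on average. None of the list was at 0 in these groups. Hopx was called higher in CD11b- and CD11b+ AMs (log2 1.48 and 1.66), and Sftpa1 in CD11b+ AMs (log2 1.57, adjusted p = 5.26e-06). In CD11b- AMs Sftpa1 rose by 0.98 (adjusted p = 0.00191), under the fold limit. Ager, Cldn18, Sftpc and Scgb1a1, which mark alveolar and airway cells, were not called. Sftpc averaged 13.6, 18.9 and 23.6 CPM, and its log2 difference of 0.78 in CD11b+ AMs (adjusted p = 0.00128) was under the fold limit. The part of either cell type in the levels of Mmp9, Mmp14, Mmp12 and Adam8 was not tested.

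The remaining Adam genes were low. Adam22, which has no protease activity, was 27.6 to 36.1 CPM in CRE- AMs, 19.7 to 37.3 in CD11b- AMs and 19.997 to 32.8 in CD11b+ AMs, and no more than 13.2 CPM in any KC sample, so that CRE- KCs were lower than CRE- AMs (log2 -2.29, SE 0.422, edgeR adjusted p = 0.000261). Adam19, a sheddase of neuregulins, fell in Tim4- relative to Tim4+ KCs (log2 -2.16, SE 0.617, edgeR adjusted p = 0.0255), at 0.366 to 1.099 against 0.328 to 6.09 CPM, ranges that overlapped. That call was lost when Tim4+ replicate 2 or 3 or Tim4- replicate 2, 5 or 6 was left out. Adam33, at a mean of 0.863 CPM in CRE- AMs and 0.124 in CD11b- AMs, was called lower (log2 -2.78, SE 0.972, edgeR adjusted p = 0.0417), and that call was lost in 11 of 16 alternatives, among them the omission of CRE- replicate 1, 4 or 5 or of CD11b- replicate 1, 2, 3 or 5. Without CD11b- replicate 4 its log2 value was -3.52.

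Among the Adamts genes, Adamts2, which trims the amino-terminal propeptide of fibrillar procollagens (chromosome 11, 50602084 to 50807573), had the highest level in CRE- AMs. CRE- AMs held 24.7, 13.3, 17.1, 17.2 and 23.0 CPM, CD11b- AMs 9.23, 12.1, 7.02, 11.3 and 5.76 CPM, and CD11b+ AMs 1.34, 2.50, 5.20, 2.12 and 1.05 CPM. The groups stood apart without overlap. Adamts2 fell with log2 values of -2.96 (SE 0.336, edgeR adjusted p = 4.93e-07) in CD11b+ AMs and -1.07 (SE 0.305, adjusted p = 0.0137) in CD11b- AMs, and -1.90 (SE 0.331, adjusted p = 0.000156) between the CRE+ groups. The call in CD11b- AMs was lost without CRE- replicate 1 or 5 or CD11b- replicate 3 or 5, where the log2 change came to as little as -0.94, and with all 33 samples in 1 fit (adjusted p = 0.240). Adamts10, a protease tied to microfibrils, averaged 7.80, 5.92 and 3.75 CPM in CRE-, CD11b- and CD11b+ AMs, and was called lower in CD11b+ AMs (log2 -1.07, SE 0.370, edgeR adjusted p = 0.0249), but not without CRE- replicate 4 or CD11b+ replicate 4.

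Adamts1, a protease of proteoglycans (chromosome 16, 85793827 to 85803113), led the Adamts genes in every KC group once counts were divided by exon length. In CPM, Adamts10 averaged more in Tim4- KCs, at 4.45 against 3.90. Adamts1 was 4.53 to 10.6 CPM in CRE- KCs (median 8.22), 5.71 to 27.9 in Tim4+ KCs (median 11.6) and 0.594 to 8.59 in Tim4- KCs (median 4.11). All 3 groups overlapped, and the log2 difference of Tim4- from Tim4+ KCs was -1.93 (SE 0.485, edgeR adjusted p = 0.0112). Per 1000 CPM of the endothelial sum it was 3.42 to 7.06, 3.95 to 8.40 and 0.954 to 12.7 CPM. Adamts13, which cleaves von Willebrand factor, averaged 1.98 CPM in CRE- KCs and 0.914 in CRE- AMs (log2 1.14, SE 0.343, adjusted p = 0.00985). Adamts4, an aggrecanase, and Adamts7 averaged 0.842 and 1.44 CPM in CRE- KCs and 1.89 and 1.82 CPM in Tim4+ KCs, without a call.

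Between the CRE- cells of the tissues, several members were present in one tissue and at or near 0 in the other. Higher in KCs were Adam23 and Mmp13, at least 1129-fold and 366-fold against the floor of 3 counts, Mmp9 with a log2 difference of 9.15 (SE 0.662, edgeR adjusted p = 1.87e-08), Mmp14 with 5.99 (SE 0.563, adjusted p = 3.19e-07) and Timp3 with 4.70 (SE 0.324, adjusted p = 1.09e-08). Higher in AMs were Adamts2, with a log2 difference of -6.47 (SE 0.728, adjusted p = 2.22e-06), Mmp8 with -6.25 (SE 0.349, adjusted p = 1.01e-09), Mmp19 with -3.63 (SE 0.146, adjusted p = 2.74e-11) and Adam15 with -2.47 (SE 0.114, adjusted p = 1.23e-10). Without CRE- AM replicate 4, the differences of Mmp9 and Mmp14 were 11.17 and 6.74, and that of Adamts1 moved from 6.81 to 8.83. Without CRE- KC replicate 1 that of Adamts2 was -9.11. Mmp12 was called higher in KCs by 1.15 (SE 0.330, adjusted p = 0.00724), a call that was lost without CRE- KC replicate 6. Adam17 was 0.71 higher in KCs on the log2 scale, under the fold limit, and Adam9 differed by 0.03 (adjusted p = 0.725).

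When the members of each family were summed per exon length, the mean Mmp sum of each CRE+ group was above, and its mean Timp sum below, that of the CRE- cells of the same tissue. The Mmp sum was 34.7 ± 2.31, 42.4 ± 10.6 and 52.5 ± 17.997 CPM per kb in CRE-, Tim4+ and Tim4- KCs (SD, n = 6) and 57.8 ± 4.81, 128 ± 20.1 and 234 ± 58.1 in CRE-, CD11b- and CD11b+ AMs (SD, n = 5). The Timp sum was 116 ± 8.29, 64.5 ± 13.03 and 36.5 ± 11.1 in the KC groups and 39.4 ± 5.58, 9.30 ± 1.62 and 15.4 ± 7.45 in the AM groups. The sum of Mmp over the sum of Timp ranged from 0.265 to 0.346 in CRE- KCs, from 0.456 to 0.899 in Tim4+ KCs and from 0.828 to 3.25 in Tim4- KCs, and from 1.37 to 1.62 in CRE- AMs, from 11.7 to 15.2 in CD11b- AMs and from 10.7 to 27.6 in CD11b+ AMs. No CRE+ sample overlapped the CRE- samples of its tissue in this ratio, which is given as a description of mRNA with no test. Timp2 made up 87.8% to 98.8% of the Timp sum of each group, while the largest share of the Mmp sum passed from Mmp9 in CRE- KCs to Mmp13 in both CRE+ KC groups, and from Mmp19 in CRE- AMs to Mmp8 in both CRE+ AM groups. The Adam sum was steadier, between 186 and 199.6 CPM per kb in the KC groups and between 118 and 133 in the AM groups.

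**Figure D4:**
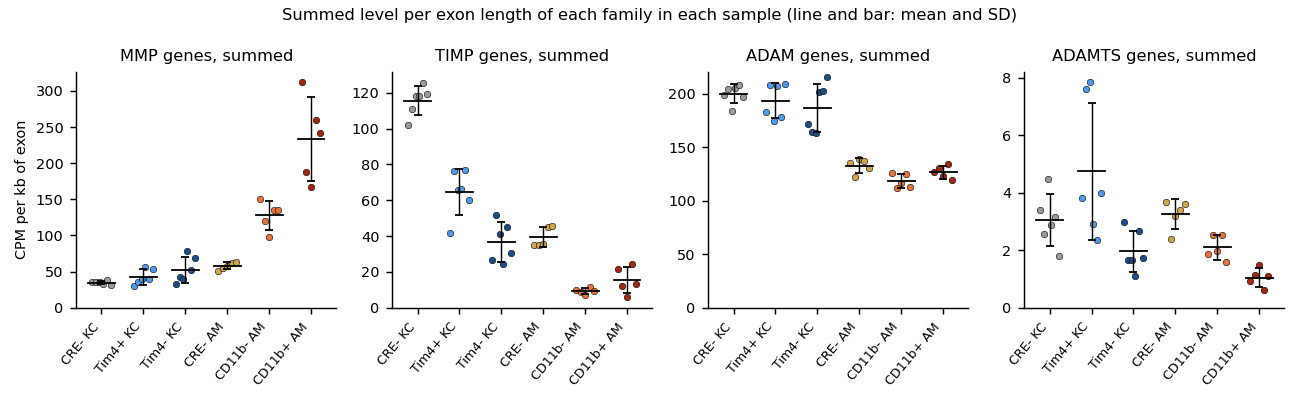
Summed level of the Mmp, Timp, Adam and Adamts genes in each sample, in CPM per kb of exon, by group; points are samples and line and bar are mean and SD. The Mmp sum rises across the AM groups to a mean of 234, and the Timp sum falls from a mean of 116 in CRE- KCs to 36.5 in Tim4- KCs and from 39.4 in CRE- AMs to 9.30 in CD11b- AMs.

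Genes that act on these proteases were read from fixed lists. Of 23 genes for their maturation and anchoring, 18 were tested in KCs and 16 in AMs. In Tim4+ KCs 1 rose and none fell, and in Tim4- KCs 2 rose and 4 fell against CRE- KCs (median log2 -0.04 and -0.07), beside 2.31% and 8.82% of all tested genes called in those comparisons. Cd9, a tetraspanin that binds Adam proteins, rose in both, from a mean of 23.4 CPM to 110 (log2 2.22, SE 0.205, edgeR adjusted p = 2.82e-07) and 92.9 CPM (log2 1.98, SE 0.203, adjusted p = 4.09e-07). Tspan33, a tetraspanin partner of Adam10, rose in Tim4- KCs from a mean of 1.24 to 7.38 CPM (log2 2.55, SE 0.620, adjusted p = 0.00449). Tspan15, another tetraspanin partner of Adam10, fell in Tim4- KCs from a mean of 514 to 179 CPM (log2 -1.54, SE 0.160, adjusted p = 5.07e-07) and averaged 0.261 CPM in CRE- AMs. Rhbdf1, a partner of Adam17, fell in Tim4- KCs (log2 -1.31, SE 0.315, adjusted p = 0.00425) and in CD11b- and CD11b+ AMs (log2 -2.56 and -1.77). In CD11b- AMs none of the 16 rose and 2 fell, and in CD11b+ AMs 2 rose and 2 fell, beside 6.5% and 15.3% of all tested genes.

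A list of 24 surface proteins known to be released by Adam10, Adam17 or related sheddases had 21 genes tested in each tissue. Cd163, a scavenger receptor shed by Adam17, fell from a mean of 1266 CPM in CRE- KCs to 236 in Tim4+ KCs (log2 -2.44, SE 0.189, edgeR adjusted p = 2.51e-08) and 52.6 in Tim4- KCs (log2 -4.60, SE 0.209, adjusted p = 1.01e-11), and Trem2 rose from 33.7 to 124 CPM (log2 1.86, SE 0.394, adjusted p = 0.00470) and 80.2 CPM (log2 1.24, SE 0.389, adjusted p = 0.0236). Hbegf, a growth factor released by shedding, rose from a mean of 0.455 CPM in CRE- AMs to 4.80 in CD11b- (log2 3.39, SE 0.411, adjusted p = 4.94e-06) and 27.4 in CD11b+ AMs (log2 5.89, SE 0.414, adjusted p = 4.92e-10). Cxcl16, a membrane-bound chemokine, rose from 3.80 to 27.8 and 211 CPM (log2 2.87 and 5.78). Unlike in KCs, Cd163 was called higher in CD11b+ than in CRE- AMs, and it was not called in CD11b- AMs. Its log2 change in CRE+ KCs less that in CRE+ AMs was -8.07 (SE 0.813, edgeR adjusted p = 3.12e-09). Of the 21, 1 rose and 1 fell in Tim4+ KCs, where 2.31% of all tested genes were called, and 1 rose and 3 fell in Tim4- KCs, where 8.82% were. In CD11b- AMs 3 rose and 2 fell, beside 6.5% of all tested genes, and in CD11b+ AMs 7 rose and 3 fell, beside 15.3%.

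Of the plasminogen system, which activates several pro-Mmp proteins, Plau, an activator, rose from a mean of 0.640 CPM in CRE- AMs to 2.04 CPM in CD11b+ AMs (log2 1.65, SE 0.502, edgeR adjusted p = 0.0116) and is named after its value was seen. Of 6 genes of this system tested in AMs, none rose and 1 fell in CD11b- AMs, beside 6.5% of all tested genes. In CD11b+ AMs 1 rose and 1 fell, beside 15.3%. None of the 8 genes of this system tested in KCs was called in Tim4+ KCs, beside 2.31% of all tested genes. In Tim4- KCs, beside 8.82% of all tested genes, Plg alone was called, lower than in CRE- KCs (log2 -1.32, SE 0.328, adjusted p = 0.00544). It averaged 8.56, 6.64 and 3.45 CPM in CRE-, Tim4+ and Tim4- KCs and is known as a product of hepatocytes. The sum of 9 hepatocyte genes, none at 0 in these groups, was 2165 to 3085, 1685 to 3069 and 1396 to 2473 CPM, with 1 of 9 called lower in Tim4- than in CRE- KCs (Fgb) and a median log2 of -0.76, and its part in the level of Plg was not tested. Of the AP-1 and ETS factors, which bind the promoters of several Mmp genes, Etv1 rose from 0.1101 CPM in CRE- AMs to 1.24 (log2 3.45, SE 0.851, adjusted p = 0.00519) and 8.32 CPM (log2 6.20, SE 0.847, adjusted p = 5.50e-06), and Etv5 rose by 1.09 and 1.26 on the log2 scale. In Tim4- KCs Fos rose from 40.7 to 93.0 CPM (log2 1.18, SE 0.240, adjusted p = 0.00105) and Ets1 fell (log2 -1.06, SE 0.195, adjusted p = 0.000408). Of 13 genes of this list tested in KCs, none was called in Tim4+ KCs, beside 2.31% of all tested genes. Fos and Ets1 alone were called in Tim4- KCs, beside 8.82%. Of 14 tested in AMs, Etv1 and Etv5 alone were called in CD11b- and in CD11b+ AMs, beside 6.5% and 15.3% of all tested genes. Of 24 other metalloproteases and Adamts-like genes, 12 were tested in KCs and 9 in AMs. Of these, 1 fell in Tim4+ and 1 in Tim4- KCs, beside 2.31% and 8.82% of all tested genes called. In AMs 3 fell in CD11b- cells, and 1 rose and 2 fell in CD11b+ cells, beside 6.5% and 15.3% of all tested genes.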

How the data were processed

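RNA was sequenced from 25000 sorted cells per sample in 33 samples. The deposited files hold raw counts per gene that the authors made with HTSeq-count, whose version is not given in the sources used here. The submitters' processing notes name FastQC 0.11.4, Trimmomatic 0.35, TopHat2 2.1.0, SAMtools 0.1.18 and the mm10 build. The annotation and the strand setting are not given in the sources used here, and trimming used a quality limit of 20 and kept reads of at least 35 bases. Each file ended in 5 tally rows that name no gene, which were left out of library sizes and tests.

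Members and lists were chosen with earlier results of these data known. Counts were tested with edgeR 4.0.16 in R 4.3.3 after TMM scaling and filterByExpr, with all 18 KC samples, all 15 AM samples or the 11 CRE- samples in one fit, and all 33 for the difference between tissues. CPM used TMM-scaled library sizes over 33 samples. Genes named were the members called or with a group mean of at least 1 CPM. Values by sample were given for up to 8 called members per comparison with the largest fold change and at least 5 CPM in the higher group, and for 11 members fixed by name (Timp1, Timp2, Timp3, Adam8, Adam10, Adam17, Mmp8, Mmp9, Mmp12, Mmp14 and Mmp19). Only some called genes of the pathway lists and some genes of the marker lists were named. None of the other metalloproteases and Adamts-like genes was. Genes called higher and genes called lower are both among those left unnamed. Exon lengths and positions came from GENCODE M21 (GRCm38), and floors and counting intervals (95%) cover counting error only. On simulated counts for the Tim4- against CRE- KC comparison, 91.5% of 200 changed genes among 12500 were recovered with 7 false calls, and 88.5% of 200 among 11573 with 12 false calls for CD11b+ against CRE- AMs. Recovery was lowest for the difference of changes between tissues, at 80.0% of 200 among 13294 with 8 false calls. The simulation gave every gene the same dispersion and scored by adjusted p alone, without the fold limit. It therefore does not show how calls fare for members with a wide spread, such as Mmp9 and Mmp13 in KCs. DESeq2 1.42.0, limma-voom 3.58.1 (the tool of the study's methods), other scalings and filters, and left-out replicates were tried as alternatives. Same-numbered samples were checked for pairing: no comparison had every correlation of their deviations over 0.1, so none was paired. One gene of the pathway lists is not reported here.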

Additional observations from a re-analysis of the deposited data

Results flagged for a closer look

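Among 74 sets of values checked for a sample far from its group, 2 stood out. Chance gives about 1 in 20, so this is no more than chance would give. Mmp12 was 32.2 CPM in Tim4- KC replicate 4, against 6.99 to 13.3 in the other 5. Mmp13 was 16.3 CPM in CRE- KC replicate 6, against 8.28 to 9.87 in the others.

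The mean change of both CRE+ KC groups less that of both CRE+ AM groups passed the test for 6 members (edgeR, quasi-likelihood, adjusted by Benjamini and Hochberg's method). It was 1.62 for Adam15 (adjusted p = 2.85e-05), -5.17 for Mmp12 (adjusted p = 5.28e-10), -5.28 for Mmp14 (adjusted p = 5.39e-09), -1.89 for Mmp19 (adjusted p = 5.46e-07), -5.11 for Mmp27 (adjusted p = 0.00271) and -2.13 for Mmp8 (adjusted p = 0.0228), on the log2 scale. Mmp8 was at most 2.52 CPM in every KC sample. Mmp27 had no count in CRE- AMs and 17 and 14 counts in the CRE+ AM groups, so its fitted value depends on how zeros are handled. Without the samples numbered 3, the values of Mmp8 and Mmp27 were -3.27 and -4.43; that of Mmp8 lost its call without those numbered 1, 4, 5 or 6, in turn. Tissue and Cre line cannot be told apart in these differences.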

How the results depend on the processing

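Of 728 recomputed fold changes, over the called members given sample by sample and the 6 differences of changes, 715 kept their direction and their call, 13 lost the call and none reversed. Without the fold limit, 4 members instead of 2 were called in Tim4+ against CRE- KCs and 8 instead of 5 in CD11b+ against CD11b- AMs; no other alternative moved a count of calls by over 1.5 times. With 1 replicate left out at a time, calls ran from 2 to 3 (Tim4+ against CRE- KCs), 5 to 7 (Tim4- against CRE- KCs), 3 to 5 (Tim4- against Tim4+ KCs), 6 to 8 (CD11b- against CRE- AMs), 9 to 10 (CD11b+ against CRE- AMs), 5 to 7 (CD11b+ against CD11b- AMs), 17 to 19 (between tissues) and 5 to 6 (the difference of changes). With a replicate block the counts were 3, 5, 5, 7, 12, 6, 17 and 6 in that order; same-numbered samples of Tim4- and Tim4+ KCs correlated best with their own number in 6 of 6 pairs (0.0936 to 0.203), a hint from the data and not from the design. With KC replicates 5 and 6 left out, chosen after the data were seen, the 4 comparisons with KCs gave 3, 7, 4 and 17 calls. Adam8 in CD11b+ against CD11b- AMs was not called with all 33 samples in 1 fit (adjusted p = 0.0511), Mmp27 in the difference of changes not with limma-voom (-2.85, adjusted p = 0.0727), Mmp8 there not in 6 of 12 alternatives (adjusted p up to 0.133), Adamts13 between tissues not without CRE- KC replicate 3 (log2 0.95), and Mmp2 between tissues not without KC replicates 5 and 6 (adjusted p = 0.0547). The cause was not tested. Depth limits the members under 1 CPM, for which zeros do not show absence.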
